A study of Mus musculus with 24 samples.

Results

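The genes described here are 6 Kruppel-like factor genes that mouse embryonic stem cells transcribe: Klf2, Klf3, Klf4, Klf5, Klf9 and Klf13. They were chosen by name, as the lines of the deposited gene table whose Ensembl identifiers (ENSMUSG00000055148, ENSMUSG00000029178, ENSMUSG00000003032, ENSMUSG00000005148, ENSMUSG00000033863 and ENSMUSG00000052040, in that order) map to these symbols. They are 6 of 56941 genes in the table, and all 6 were among the 22448 genes with enough reads to test. They lie on mouse chromosomes 8, 5, 4, 14, 19 and 7, so no pair of them shares a chromosome.

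The study labelled newly made RNA in E14TG2a cells, a mouse embryonic stem cell line, by feeding them the uridine analogue 5-ethynyl uridine (EU, 1 mM) for 10, 20, 40 or 60 min and pulling down the labelled RNA. The cells were wild type (WT), Alkbh5 KO or Alkbh5 del-cIDR, here called del-cIDR. ALKBH5 is an enzyme that removes methyl groups from adenosine in RNA. Each of the 12 combinations of genotype and time had 2 libraries, 24 in all. Every group grew in serum medium with LIF, the MEK inhibitor PD0325901 and the GSK3 inhibitor CHIR99021, and every sample received the same amount of RNA from EU-labelled Drosophila cells. The labels do not say how many clones stand behind each genotype, nor whether both libraries of a group came from separate cultures. The p-values therefore rest on the spread within library pairs, which may be technical.

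Kruppel-like factors are transcription factors that bind GC-rich DNA and the letters CACCC through zinc fingers at their C-terminal end. Klf2, Klf4 and Klf5 belong to the network that keeps mouse embryonic stem cells in the naive state. Klf4 is a known target of the LIF and STAT3 pathway and one of the factors used to reprogram somatic cells, and Klf2 is known to be maintained when MEK is inhibited. Klf3 is best known as a repressor that recruits C-terminal binding proteins, and Klf9 and Klf13 belong to a subgroup that can recruit the Sin3 corepressor.

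Libraries held 3129065 to 22160051 reads in genes and 6037 to 23382 spike-in reads. Levels below are reads scaled to 11714 spike-in reads, the geometric mean of the libraries, and a relative level is log2(level + 1) minus the median of the tested genes of the same library. Alkbh5 itself had a median relative level of 3.75 in the 8 WT libraries (range 3.25 to 4.20), 3.19 in KO (2.67 to 3.39) and 3.36 in del-cIDR (2.55 to 3.70). All 6 pluripotent stem cell markers were read in each genotype, with a summed level of 12918 to 84101 in WT, 19983 to 85158 in KO and 9230 to 87056 in del-cIDR. Summed levels reached 81.5 for 7 fibroblast markers, 323 for 6 of primitive endoderm, 1559 for 6 of trophectoderm and 6762 for 5 of neural progenitors. The neural sum had its median at 1603 in WT, 3615 in KO and 2070 in del-cIDR, and its part in the results was not tested. Nes had the highest mean level of these 5 markers, 2167, and the markers did not move alike in KO. Relative to the median gene, KO differed from WT by 0.86 for Nes, 1.57 for Pax6, -0.05 for Sox1 and -1.49 for Pou3f2. Neurog2 had too few reads to test. The del-cIDR libraries of 10 min stood apart in depth, with 4006077 and 3129065 gene reads against 12685954 or more in the other del-cIDR libraries.

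Among the 17 Klf genes of the table, 4 of the 6 genes held the highest nascent RNA levels per kb of exons, and 3 of them per kb of the whole gene. Per kb of annotated exons, the mean level over all libraries was 868 for Klf4, 848 for Klf5, 748 for Klf2 and 688 for Klf9. Klf10 and Klf6 followed at 352 and 267 per kb, then Klf3 at 240 in place 7 and Klf13 at 104 in place 11. Klf4, Klf5, Klf2 and Klf9 cannot be put in a firm order among themselves. Klf4 was above Klf5 per kb of exons in 15 of 23 library values, Klf5 above Klf2 in 13 and Klf2 above Klf9 in 16. Klf9 was above Klf3, and Klf3 above Klf13, in 23 of 23. Labelled RNA includes introns, and per kb of the whole gene Klf2 (2.62 kb long) came first with 526, followed by Klf4 at 497 and Klf5 at 270. On that measure Klf10 (159) and Klf6 (132), which are not among the 6, came next. Klf9 (26.9 kb) had 123 and Klf3 (29.5 kb) 91.4, with Klf9 above Klf3 in 12 of 23 library values, and Klf13 (52.6 kb) had 14.8.

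**Figure D1:**
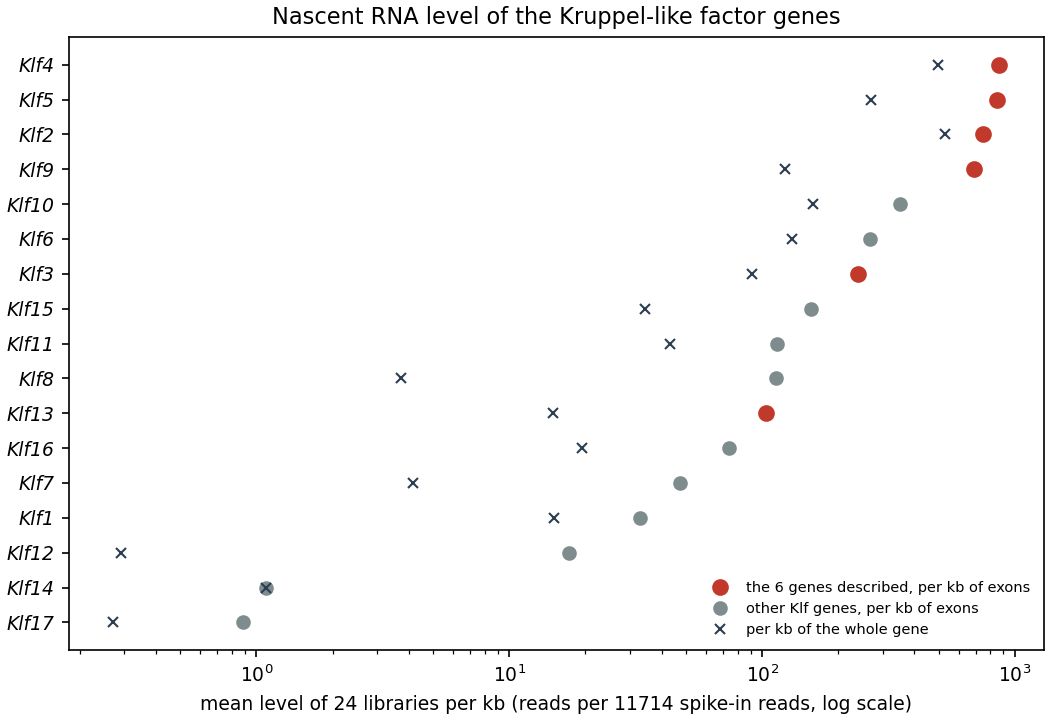
Mean level of 24 libraries per kb for the 17 Klf genes of the table, on a log axis, per kb of exons (circles) and per kb of the whole gene (crosses). Klf4, Klf5, Klf2 and Klf9 hold the 4 highest circles, between 688 and 868.

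Labelled RNA of all 6 genes grew with labelling time in each genotype, Klf9 and Klf5 the most. In the authors' deposited table, the log2 ratio of 60 to 10 min in WT was 3.04 for Klf9, 2.48 for Klf5, 2.31 for Klf3, 2.12 for Klf4, 2.05 for Klf13 and 1.98 for Klf2. The median tested gene had 2.09 in that column, so Klf9 stood 0.94 above it and Klf2 fell 0.12 short. The same table gave Klf9 a ratio of 2.58 in KO, against a median of 1.67, and 3.81 in del-cIDR, against 2.72. Klf13 is the gene whose deposited ratio lay furthest below the median in del-cIDR after 20 min, by 0.63 on the log2 scale, and Klf3 at 40 and 60 min, by 0.91 and 0.70.

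Klf9, a hormone-responsive factor of the subgroup that binds Sin3, gained labelled RNA fastest. In WT its level was 784 and 561 after 10 min, 1610 and 1531 after 20 min and 3271 and 5050 after 40 min. The 60 min group gave a single value for Klf9, Klf5, Klf4 and Klf3, because reads of these genes could not be split between its 2 libraries, and for Klf9 it was 5517. Relative to the median gene, Klf9 rose by 0.41 ± 0.03 (SE) on the log2 scale per doubling of labelling time in WT (adjusted p = 3.29e-06, limma), by 0.38 ± 0.03 in KO (3.17e-06) and by 0.49 ± 0.03 in del-cIDR (1.13e-07). In KO its level went from 821 and 1050 after 10 min to 5812 and 5363 after 60 min. In del-cIDR it went from 505 and 494 to 6018 and 8044. After 10 min both del-cIDR libraries of Klf9 were thus below those of WT and KO. After 60 min they were above both KO libraries and the single WT value, whose 2 libraries cannot be ranked. On this spike-in scale the median difference of all tested genes between del-cIDR and WT was itself -0.54 after 10 min.

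Klf5, which supports self-renewal of embryonic stem cells, showed the same shape. Its level in WT was 1331 and 1013 after 10 min, 2324 and 2319 after 20 min, 4544 and 6654 after 40 min and 6539, as 1 value, after 60 min. Its relative level rose by 0.21 ± 0.04 per doubling in WT (adjusted p = 0.000717, limma), 0.34 ± 0.03 in KO (1.32e-05) and 0.35 ± 0.03 in del-cIDR (2.06e-06). Klf9 and Klf5 passed in all 3 genotypes, where 24.3%, 17.8% and 29.1% of tested genes rose against the median gene in WT, KO and del-cIDR. Klf3 rose in WT (0.16 ± 0.04 per doubling, adjusted p = 0.01) and KO (0.20 ± 0.04, 0.00145) and fell in del-cIDR (-0.24 ± 0.04, 0.000158, limma). Falls of that kind were called for 13.8% of tested genes in del-cIDR. Klf4 had slopes of 0.03 in WT, 0.13 in KO and 0.19 in del-cIDR, and only those of KO (adjusted p = 0.0167, limma) and del-cIDR (0.000903) passed. Klf2 passed in del-cIDR alone (0.12 ± 0.04, adjusted p = 0.0349, limma), with -0.04 in WT and 0.02 in KO, and Klf13 in del-cIDR alone (-0.20 ± 0.05, 0.00346), with 0.01 and -0.03. These slopes are measured against the median gene and move with it. The slopes of Klf9 in all 3 genotypes and of Klf5 in KO and del-cIDR kept direction and call under all 36 alternative settings. Those of the other 4 genes, and of Klf5 in WT, depended on the setting. After quantile normalization the WT slopes of Klf5 and Klf3 were 0.06 (adjusted p = 0.235, limma) and 0.03 (0.693), and the KO slopes of Klf3 and Klf4 were 0.11 (0.0561) and 0.04 (0.526). In del-cIDR that of Klf4 was then 0.02 (adjusted p = 0.667, limma), while Klf2 in del-cIDR turned to -0.05 and Klf4 in WT to -0.11. The fall of Klf3 in del-cIDR was -0.08 (adjusted p = 0.208, limma) with no filter on low levels and -0.14 (0.166) without the 10 min libraries, and on the spike-in scale its slope was 0.74. That of Klf13 was -0.04 (adjusted p = 0.578, limma) with no filter and 0.03 without the 10 min libraries. With a mean level of at least 50 required, Klf3 in WT (adjusted p = 0.0768, limma), Klf4 in KO (0.0737) and Klf2 in del-cIDR (0.329) missed the threshold. With 1 value for each group no slope of Klf2, Klf3, Klf4 or Klf13 was called. Leaving out 1 library ended the call of Klf4 in KO (A of 10 min, adjusted p = 0.144, or B of 60 min, 0.109, where A has more spike-in reads than B, limma). It did so for Klf2 in del-cIDR without B of 10 min (adjusted p = 0.204, limma), A of 40 min (0.0741), or A or B of 60 min (0.0942 and 0.0887).

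**Figure D2:**
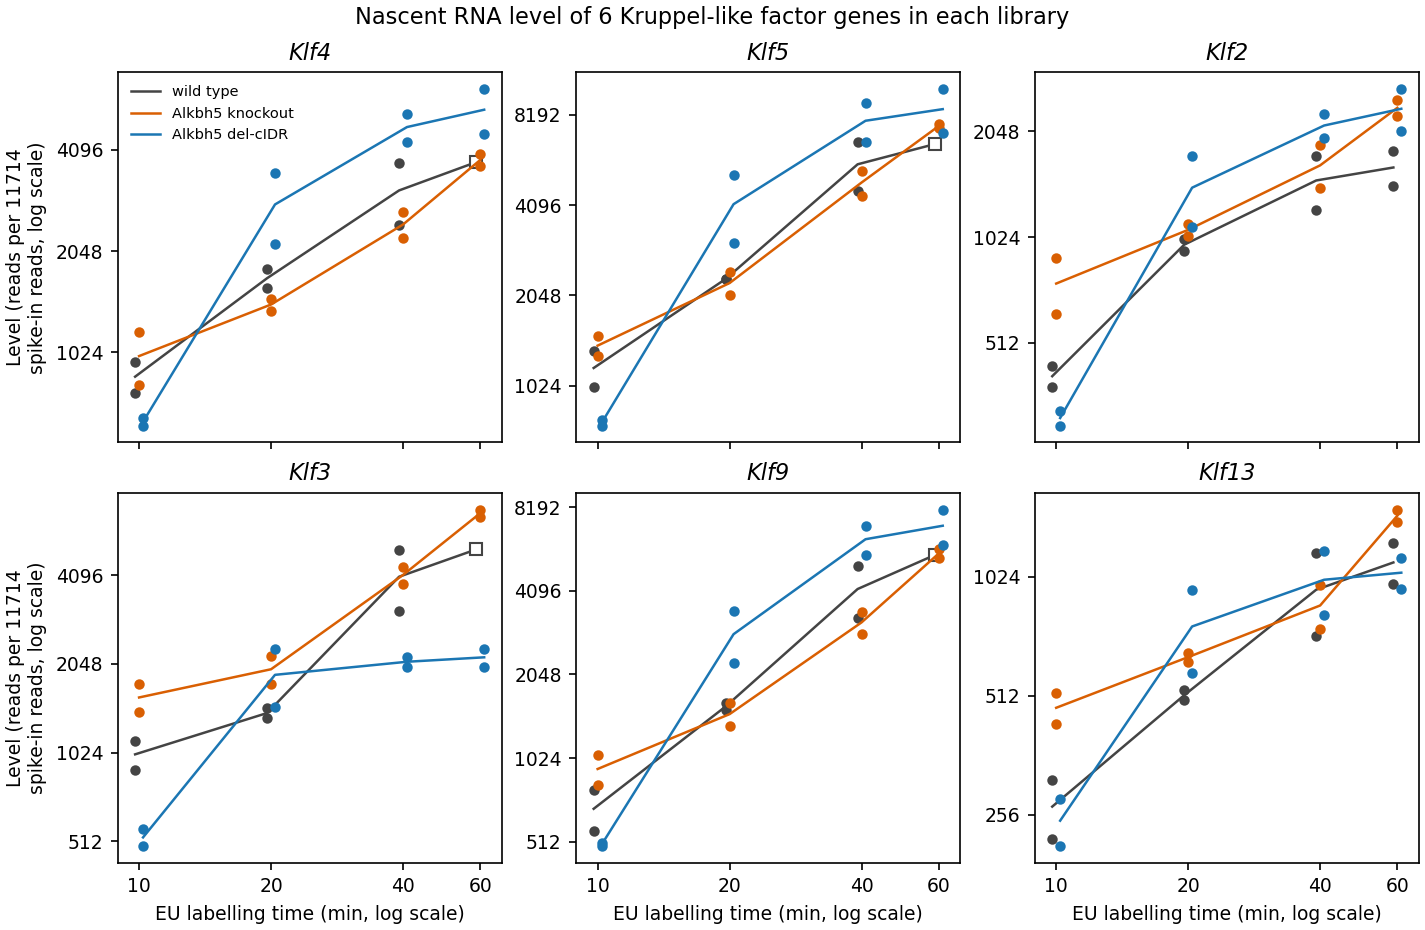
Level of each gene in each library (points) and the mean of each group (lines) against EU labelling time, both axes on log scales, for WT, KO and del-cIDR. Open squares are the WT groups of 60 min that gave 1 value. Klf3 in del-cIDR goes from a mean of 1880 after 20 min to 2156 after 60 min, while WT and KO end at 5005 and 6640.

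The comparison of KO with WT asks how loss of ALKBH5 goes with the amount of newly made RNA. Klf4, Klf5 and Klf9 were lower in KO relative to the median gene, and Klf2, Klf3 and Klf13 did not pass the test. The fall was 0.39 ± 0.05 (SE) on the log2 scale for Klf4, 0.30 ± 0.04 for Klf9 and 0.25 ± 0.04 for Klf5, averaged over the 4 times. Calls were common: 30.1% of all tested genes passed, and 15.5% of all tested genes were called lower in KO. The amount of RNA per cell and the number of cells cannot be told apart in such bulk samples.

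Klf4 had relative levels in WT of 4.25 and 4.30 after 10 min, 4.37 and 4.29 after 20 min, 4.22 and 4.20 after 40 min and 4.42 (1 value) after 60 min. In KO they were 3.61 and 3.86, 3.91 and 3.83, 3.91 and 3.94, and 4.01 and 4.23 at the same times. Every KO library was below both WT libraries of its time at 10, 20 and 40 min, and below the single WT value at 60 min. The mean difference put Klf4 in KO at 0.761 of its WT level (adjusted p = 8.93e-05, limma). Klf9 had relative levels in WT of 3.95 and 3.84, 4.20 and 4.24, 4.64 and 4.62, and 4.97 (1 value), from 10 to 60 min. In KO Klf9 had 3.62 and 3.70, 3.88 and 3.96, 4.28 and 4.30, and 4.67 and 4.66. Again no KO library of Klf9 reached a WT library at 10, 20 or 40 min, or the single WT value at 60 min. Klf9 stood at 0.814 of its WT level (adjusted p = 8.98e-05, limma). Klf5 was also below WT at each time, at 0.842 of its WT level (adjusted p = 0.000886, limma). Its relative level was 4.26 and 4.21 in KO against 4.72 and 4.69 in WT after 10 min, and 5.02 and 5.17 against 5.22 (1 value) after 60 min. Among all tested genes 7.53% lay below WT in this way at all 4 times. A group with 1 value was compared by that value, which is easier to clear than 2 libraries. Tested at single times, Klf5 differed by -0.47 (adjusted p = 0.00383, limma), -0.25 (0.0788), -0.15 (0.334) and -0.12 (0.592) from 10 to 60 min. Klf4 was called after 10 and 20 min only (adjusted p = 0.00465 and 0.011, limma). Klf9 was called after 20 and 40 min only (adjusted p = 0.0228 and 0.0133, limma). The F test over the 4 times, given below, called no dependence on time for these genes.

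These 3 falls are relative to the median gene, which was itself 0.30 higher in KO than in WT on the spike-in scale. On that scale Klf4 differed by -0.09 (adjusted p = 0.696, limma), while Klf5 and Klf9 turned to 0.06 (0.791) and 0.01 (0.96), and 2.63% of tested genes were called lower. With no filter on low levels Klf5 gave -0.19 (adjusted p = 0.0887, limma), and with 1 value for each group -0.26 (0.088). Relative to the median gene, 3 of the 10 tested genes nearest to Klf4 were called lower in KO and none higher. Their median was -0.16. Beside Klf5 3 were higher and none lower (median 0.10), and beside Klf9 none was called (median -0.03). Over all tested genes 14.6% were called higher and 15.5% lower. The part of the neighbourhood was not tested.

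**Figure D3:**
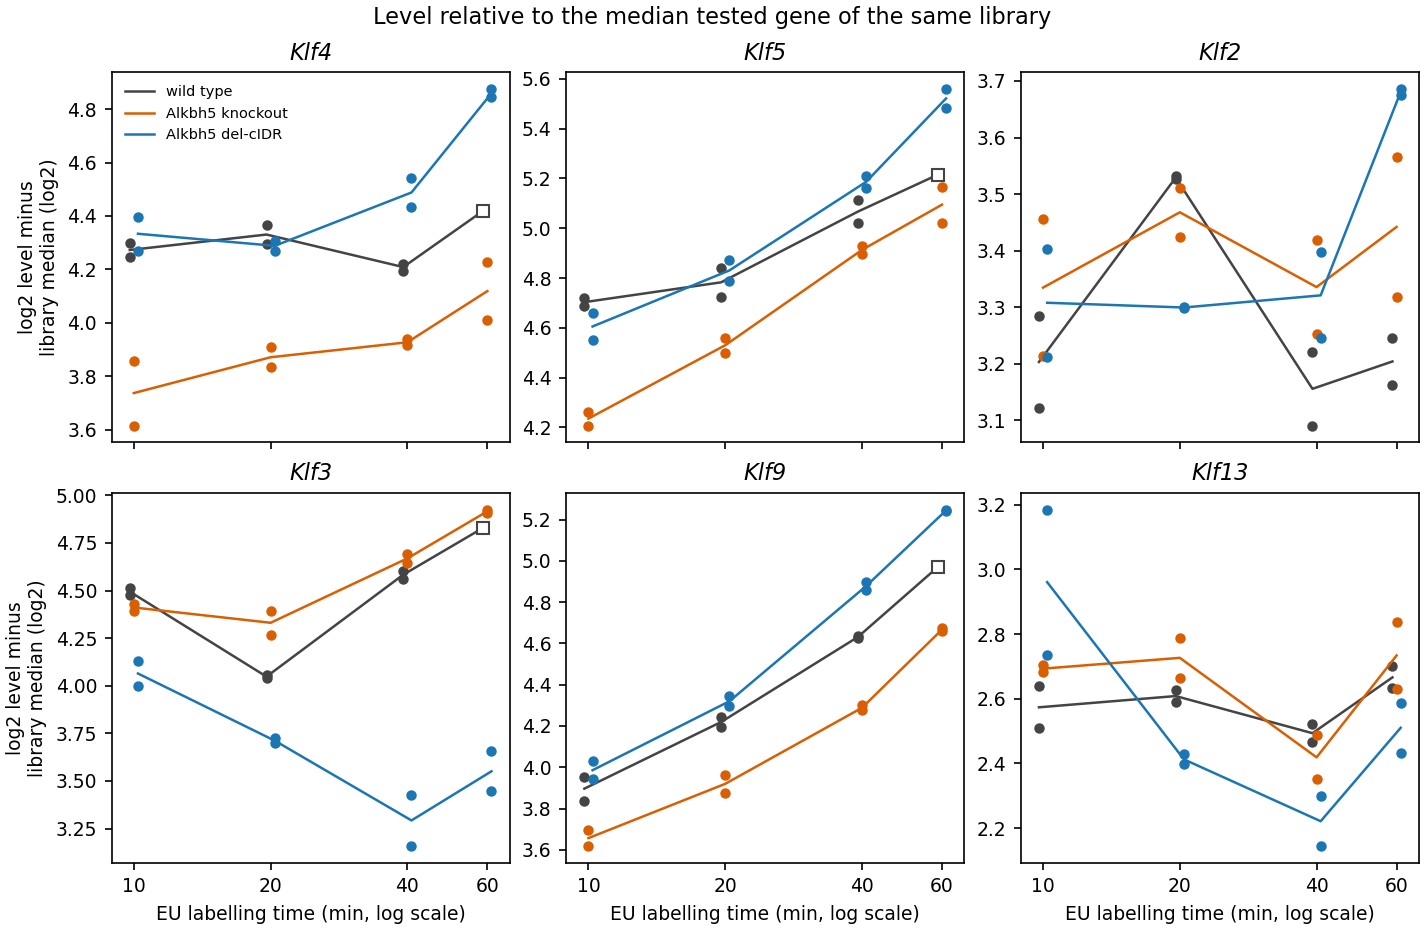
Relative level (log2 level minus the median tested gene of the library) of each gene in each library (points) and group mean (lines) against EU labelling time on a log scale. Open squares are groups that gave 1 value. KO lies below WT at each time for Klf4, Klf5 and Klf9, and del-cIDR lies below WT at each time for Klf3.

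The upstream sequences of Klf4 and Klf9 are shown because these genes were both lower in KO and both lay above KO in del-cIDR. They are the 250 bases before the annotated start from RefSeq, build GRCm38.p6, which held 5 of the 6 genes and no entry for Klf5. Klf4 is given from chr4:55532476-55532725 on the minus strand and Klf9 from chr19:23140976-23141225 on the plus strand. Capitals mark 3 motifs searched on both strands: CACCC (or GGGTG), the GC box GGGCGG (or CCGCCC) and the STAT-type site TTCNNNGAA, which reads alike on both strands.
Klf4: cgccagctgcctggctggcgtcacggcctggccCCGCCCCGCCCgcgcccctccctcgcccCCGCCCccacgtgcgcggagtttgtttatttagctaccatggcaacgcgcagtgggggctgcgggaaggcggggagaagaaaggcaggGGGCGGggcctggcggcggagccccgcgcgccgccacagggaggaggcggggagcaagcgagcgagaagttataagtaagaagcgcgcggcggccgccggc
Klf9: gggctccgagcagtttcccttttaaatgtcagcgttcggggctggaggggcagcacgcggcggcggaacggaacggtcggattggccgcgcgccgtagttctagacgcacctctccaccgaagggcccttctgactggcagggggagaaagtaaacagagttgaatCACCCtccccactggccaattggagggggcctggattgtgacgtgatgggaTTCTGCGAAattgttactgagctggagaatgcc
The window of Klf4 held 4 GC boxes, some of them overlapping, and neither of the other motifs. Klf9 held 1 CACCC and 1 TTCNNNGAA and no GC box. Of 32851 RefSeq windows of the same 250 bases, 52.0% held CACCC, 32.7% a GC box and 7.02% TTCNNNGAA. The windows of these co-moving genes thus shared none of the 3 motifs, and their GC content was 74.0% for Klf4 and 59.6% for Klf9, against a median of 52.4%.

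In del-cIDR compared with WT, Klf3, the repressor that works through C-terminal binding proteins, was much lower, and Klf4 and Klf9 were slightly higher relative to the median gene. Klf3 stood at 0.561 of its WT level, a fall of 0.83 ± 0.05 (SE) on the log2 scale over the 4 times (adjusted p = 4.24e-07, limma). Klf4 was 0.18 ± 0.05 higher (adjusted p = 0.0219, limma) and Klf9 0.18 ± 0.04 higher (0.00552). Klf2 (0.13 ± 0.06, adjusted p = 0.121), Klf5 (0.09 ± 0.04, 0.149) and Klf13 (-0.06 ± 0.06, 0.549) did not pass. Of all tested genes 25.1% passed, 10.4% higher and 14.7% lower.

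The level of Klf3 in WT was 1125 and 897 after 10 min, 1447 and 1344 after 20 min, 3104 and 4982 after 40 min and 5005 (1 value) after 60 min. In KO it was 1406 and 1745, 1745 and 2183, 3829 and 4371, and 6833 and 6446. In del-cIDR it was 494 and 563, 1468 and 2293, 1998 and 2167, and 2006 and 2306. At 60 min the group means of WT and KO were thus 5005 and 6640, while no del-cIDR library exceeded 2306. From 20 to 40 min the mean grew 2.90-fold in WT, 2.09-fold in KO and 1.11-fold in del-cIDR, and from 40 to 60 min 1.24-fold, 1.62-fold and 1.04-fold.

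On the relative scale, Klf3 in del-cIDR had 4.0 and 4.13 after 10 min, 3.72 and 3.70 after 20 min, 3.43 and 3.16 after 40 min, and 3.66 and 3.45 after 60 min. WT had 4.48 and 4.51, 4.04 and 4.06, 4.56 and 4.60, and 4.83 (1 value). The del-cIDR libraries were below WT at every time, at 60 min against the single WT value, as were 5.91% of tested genes. They were below both KO libraries at every time, as were 11.0%. Unlike the falls in KO, that of Klf3 passed on the spike-in scale too, at -0.66 ± 0.16 (adjusted p = 0.014, limma), where 2.23% of tested genes were called lower. It was called under all 36 alternative settings.

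The size of the Klf3 difference depended on labelling time. It was -0.43 ± 0.10 after 10 min (adjusted p = 0.0131, limma), -0.34 ± 0.10 after 20 min (0.0573), -1.29 ± 0.10 after 40 min (2.62e-05) and -1.28 ± 0.12 after 60 min (0.000109). Falls were called for 10.5%, 3.42% and 2.15% of tested genes after 10, 40 and 60 min. The call after 10 min was lost with no filter on low levels (-0.36, adjusted p = 0.251, limma), after quantile normalization (-0.29, 0.0721) and without 1 library of 10 min, WT B (-0.41, 0.0587) or del-cIDR A (-0.36, 0.0639). An F test over the 4 times gave adjusted p = 0.0157 (limma), a call made for 2.08% of tested genes, and none of the other 5 genes passed it (adjusted p from 0.104 to 0.564). With an intensity trend in limma, where 1756 genes were called, Klf2 (adjusted p = 0.0169) and Klf13 (0.0317) passed it too. Klf13 also passed without del-cIDR library B of 10 min (adjusted p = 0.0292, limma). The same test of KO against WT called 0.00891% of genes and none of the 6 (adjusted p from 0.616 to 0.966, limma). The slope per doubling of time was lower in del-cIDR than in WT by -0.40 ± 0.06 (adjusted p = 0.0146, limma) and than in KO by -0.44 ± 0.05 (0.00155), contrasts added after the data had been seen. Such lower slopes were called for 0.267% and 1.77% of tested genes. On the spike-in scale these 2 contrasts were -0.22 (adjusted p = 0.52, limma) and -0.08 (0.681), the F test gave 0.0613, and the difference after 20 min turned to 0.40 (0.28). None of the differences at single times was called on that scale, with -0.93 (adjusted p = 0.0603, limma), -0.92 (0.22) and -1.20 (0.294) after 10, 40 and 60 min. With no filter on low levels the F test gave 0.124 and the contrast with WT -0.42 (adjusted p = 0.129, limma). Without the 10 min libraries the F test gave 0.129 and the contrasts -0.63 (adjusted p = 0.0549, limma) and -0.50 (0.131).

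**Figure D4:**
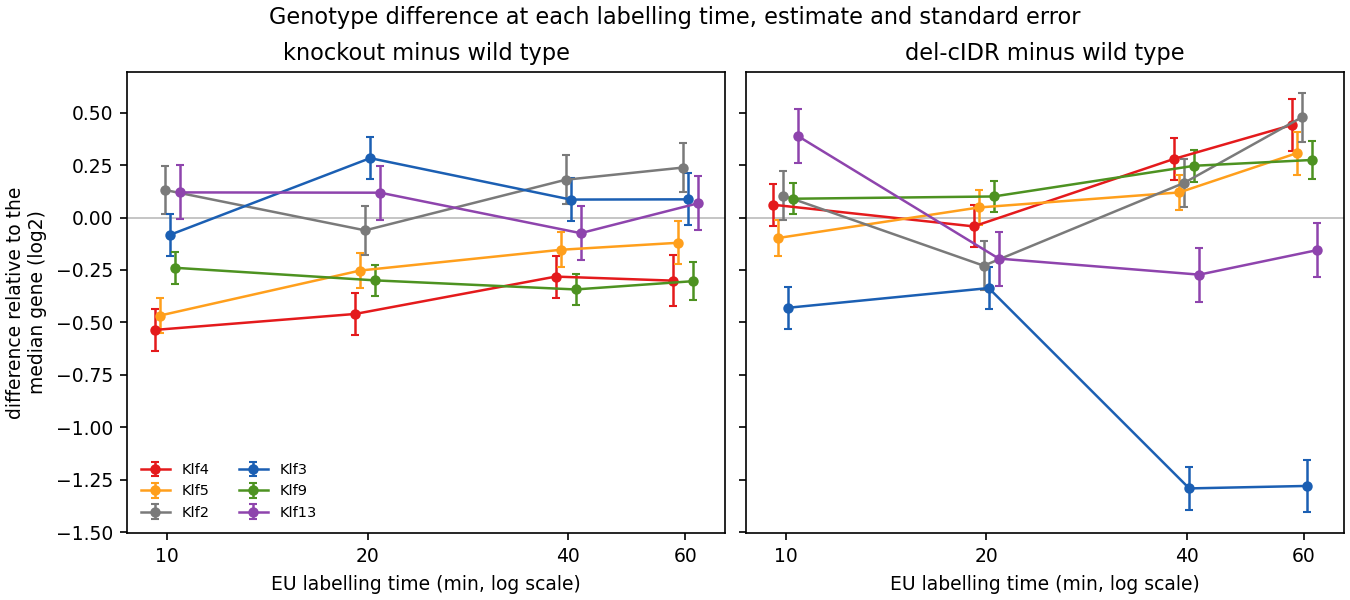
Difference from WT at each labelling time (log scale), relative to the median gene, estimate and SE from limma, for KO (left) and del-cIDR (right). Klf3 in del-cIDR drops from -0.34 after 20 min to -1.29 after 40 min, while the other 5 genes lie between -0.27 and 0.48 on the right.

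The gene C230096K16Rik, annotated inside Klf3 on the same strand, was counted on its own line and moved with it. It was lower in del-cIDR than in WT by -0.77 ± 0.06 (adjusted p = 1.27e-06, limma), and in KO it differed by 0.13 ± 0.06 (0.123). Gm20033, annotated on the opposite strand within Klf3, had few reads (mean level 32.6) and differed by -1.0 ± 0.22 in del-cIDR (adjusted p = 0.00454, limma). Whether the counting used strand is not given in the sources used here, so reads of Klf3 and of genes that overlap it may not be fully separate. Outside the gene, the 10 nearest tested genes, 5 on each side, had a median difference of 0.13 in del-cIDR. Of these, 1 was higher (Fam114a1, 0.31 ± 0.10) and 1 lower (Tmem156, -1.45 ± 0.25, mean level 19.7). Over all tested genes 10.4% were called higher and 14.7% lower. The 1463 tested genes of chromosome 5 had a median difference of 0.0035 in del-cIDR.

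The upstream window of Klf3, from chr5:64803271-64803520 on the plus strand (RefSeq, GRCm38.p6), is shown because Klf3 fell where Klf4 and Klf9 rose, with capitals as above.
Klf3: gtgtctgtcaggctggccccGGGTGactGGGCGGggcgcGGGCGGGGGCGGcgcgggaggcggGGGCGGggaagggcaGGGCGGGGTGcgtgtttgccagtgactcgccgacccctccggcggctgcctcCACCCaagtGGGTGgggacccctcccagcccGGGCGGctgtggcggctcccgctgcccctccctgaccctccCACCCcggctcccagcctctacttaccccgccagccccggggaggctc
This window held 5 CACCC and 6 GC boxes, 1 of each overlapping, with no TTCNNNGAA and a GC content of 78.4%. The median RefSeq window held 1 CACCC and no GC box. A match describes letters and not binding.

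For Klf4, relative levels in del-cIDR were 4.40 and 4.27 after 10 min, 4.27 and 4.31 after 20 min, 4.54 and 4.43 after 40 min, and 4.84 and 4.88 after 60 min. They overlapped WT at 10 and 20 min and lay above both WT libraries at 40 min and the single WT value at 60 min. For Klf9 they were 4.03 and 3.94, 4.34 and 4.30, 4.90 and 4.86, and 5.24 and 5.25, which overlapped WT after 10 min. The call for Klf4 was lost without 1 del-cIDR library of 40 min, the library with more spike-in reads, at 0.17 (adjusted p = 0.0524, limma), and with no filter on low levels, at 0.24 (0.0647). With 1 value for each group neither was called, Klf4 at 0.18 (adjusted p = 0.285, limma) and Klf9 at 0.17 (0.228). With levels left on the spike-in scale Klf4 gave 0.35 (adjusted p = 0.215, limma) and Klf9 0.35 (0.22), where the median gene was 0.15 higher in del-cIDR. Relative to the median gene, 3 of the 10 tested genes nearest to Klf4 were called higher in del-cIDR and none lower. Their median was 0.10. Beside Klf9 none was higher and 3 were lower, with a median of -0.16. Shares over all tested genes were 10.4% higher and 14.7% lower.

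**Figure D5:**
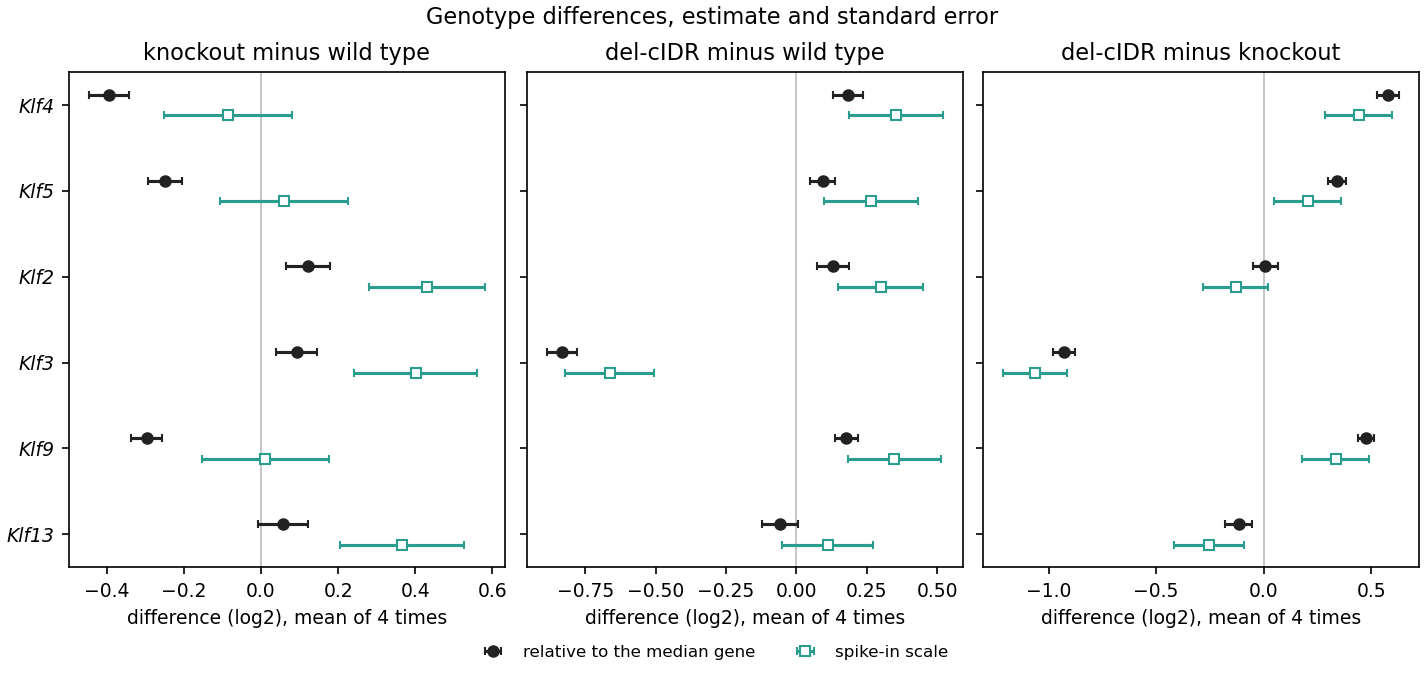
Differences between genotypes averaged over the 4 labelling times, estimate and SE, relative to the median gene (filled circles) and on the spike-in scale (open squares). Klf3 in del-cIDR lies at -0.83 and -0.66 from WT, and Klf4, Klf5 and Klf9 lie at -0.39 to -0.25 in KO on the relative scale only.

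Relative to the median of all tested genes, the 2 mutant genotypes differed from each other in 4 of the 6 genes. On this measure del-cIDR was above KO by 0.58 ± 0.05 for Klf4 (adjusted p = 8.76e-07, limma), 0.47 ± 0.04 for Klf9 (4.10e-07) and 0.34 ± 0.04 for Klf5 (2.20e-05). It was below KO by -0.93 ± 0.05 for Klf3 (adjusted p = 1.49e-08, limma). Of all tested genes 43.4% passed this test, 21.0% higher and 22.4% lower. The libraries of the 2 genotypes did not overlap at any time for these 4 genes, as was so for 8.70% of tested genes above and 11.0% below. On the spike-in scale the difference was called for Klf3, at -1.06 (adjusted p = 4.79e-05, limma), and Klf4, at 0.44 (0.0492), where 17.0% of tested genes were lower and 6.57% higher. Klf9 gave 0.34 (adjusted p = 0.135, limma) and Klf5 0.20 (0.387) on that scale. This comparison shares its libraries with the other two, so its calls are not independent of theirs. Relative to the median gene, 5 of the 10 tested genes nearest to Klf4 were called higher in del-cIDR than in KO. None was lower, and their median was 0.29. Beside Klf5, and likewise beside Klf9, none was higher and 3 were lower, with medians of -0.08 and -0.10.

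Klf2, a partner of Klf4 and Klf5 in the naive network, was not called between genotypes over the 4 times, and the genes of its chromosome differed between genotypes too. Its relative levels in WT were 3.12 and 3.28, 3.53 and 3.53, 3.22 and 3.09, and 3.25 and 3.16, from 10 to 60 min. In KO they were 3.21 and 3.46, 3.51 and 3.42, 3.25 and 3.42, and 3.32 and 3.57. In del-cIDR they were 3.40 and 3.21, 3.30 and 3.30, 3.40 and 3.24, and 3.69 and 3.68. KO differed from WT by 0.12 ± 0.06 (adjusted p = 0.134, limma), and groups overlapped at some times. At single times 1 difference from WT was called, in del-cIDR after 60 min, at 0.48 ± 0.12 (adjusted p = 0.0358, limma), where 1.63% of tested genes were called higher. The KO difference was called on the spike-in scale, at 0.43 (adjusted p = 0.0444, limma), as were 21.9% of tested genes in that direction. The 1108 tested genes of chromosome 8 had a median of 0.33 in KO against WT and -0.13 in del-cIDR against WT. Of the 10 tested genes nearest to Klf2, 9 were called higher in KO, with a median of 0.38, and 6 lower in del-cIDR, with a median of -0.23. Over all tested genes these calls were made for 14.6% and 14.7%. Measured against its own chromosome, Klf2 was lower in KO, at -0.21 (adjusted p = 0.0109, limma), and higher in del-cIDR, at 0.24 (0.00555). Measured so, del-cIDR was above KO by 0.45 (adjusted p = 1.64e-05, limma), whereas relative to the median of all tested genes this difference was not called. The part of chromosome 8 in the value of Klf2 was not tested further. The medians of the chromosomes of the other 5 genes lay between -0.05 and 0.05 in all 3 comparisons.

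Klf13, related to Klf9, was the gene of the 6 with the fewest reads, 215 to 1180 per library. Its relative level was 2.64 and 2.51 in WT after 10 min and 2.70 and 2.63 after 60 min. In KO it was 2.70 and 2.68 after 10 min and 2.63 and 2.84 after 60 min. In del-cIDR it was 3.19 and 2.74 after 10 min, the widest gap between 2 libraries of a group for this gene, and 2.59 and 2.43 after 60 min. Differences were 0.06 ± 0.06 in KO (adjusted p = 0.554, limma) and -0.06 ± 0.06 in del-cIDR (0.549) against WT. Without the 10 min libraries del-cIDR was lower than WT by -0.21 (adjusted p = 0.0223, limma) and lower than KO by -0.25 (0.00524). The antisense neighbours E030018B13Rik and Gm27252 overlap Klf13, and neither was called in either genotype.

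Among the other Kruppel-like and Sp factor genes, 15 of 20 were tested, since Klf14, Klf17, Sp5, Sp6 and Sp7 had too few reads. In KO 3 were higher and 4 lower than WT, with a median of -0.11 against -0.01 for all tested genes. Of all tested genes 14.6% were called higher and 15.5% lower in KO. Klf6, a factor induced by many stimuli, was higher by 0.79 ± 0.06 (adjusted p = 2.79e-07, limma), Klf12, a repressor, by 0.64 ± 0.13 (0.00146), and Sp9 differed by -1.02 ± 0.18 (0.000702) at a mean level of 44.0. In del-cIDR 2 were higher and 5 lower, with a median of -0.10 against -0.02, where 10.4% and 14.7% of all tested genes were called so. Klf12 differed by -0.80 ± 0.13 (adjusted p = 0.000425, limma), Klf1 by -0.79 ± 0.20 (0.00877, mean level 50.5) and Klf7 by -0.59 ± 0.10 (0.000551). Klf12 thus lay on opposite sides of WT in the 2 mutants, as did Klf7, at 0.35 in KO (adjusted p = 0.0126, limma). Klf4 and Klf9 did so with the signs exchanged. Klf10 went as Klf4 and Klf9 did, at -0.24 in KO (adjusted p = 0.000909, limma) and 0.15 in del-cIDR (0.0192). Both calls of Klf10 were lost with no filter on low levels. With spike-in scaling the calls were 4 higher and 1 lower in KO and 1 each in del-cIDR. Shares of all tested genes on that scale were 21.9% higher and 2.63% lower in KO, and 5.69% and 2.23% in del-cIDR.

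Of the 16 naive pluripotency genes, all tested, 3 were higher and 5 lower in KO, with a median of -0.05. Shares over all tested genes were 14.6% higher and 15.5% lower. Tfcp2l1, a LIF target of the same network, differed by -0.61 ± 0.04 (adjusted p = 3.24e-07, limma), and Dppa3, a germ cell and naive marker, by 0.70 ± 0.21 (0.0226). The KO call of Dppa3 was lost in 9 of 36 alternatives, among them 7 that left out 1 library and the centring on its own chromosome, with values from 0.35 to 1.01. Zfp42 and Smad1, also called higher in KO at 0.25 and 0.33, lie on chromosome 8. Against that chromosome's median they turned to -0.09 and -0.0033. In del-cIDR 3 were higher and 3 lower, with a median of -0.08, where the shares over all tested genes were 10.4% and 14.7%. Dppa3 was higher by 1.01 ± 0.21 (adjusted p = 0.00333, limma), Nr0b1 by 0.62 ± 0.08 (7.59e-05), and Sall4 differed by -0.34 ± 0.05 (0.000189). Scaled to the spike-in, 4 were higher and none lower in KO, and 2 higher and none lower in del-cIDR, so the falls hold relative to the median gene only. Over all tested genes that scale gave 21.9% higher and 2.63% lower in KO, and 5.69% and 2.23% in del-cIDR.

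Of the 16 genes of the LIF and STAT3 pathway, 3 were higher and 3 lower in KO, with a median of 0.00, and 4 higher and 4 lower in del-cIDR, with a median of 0.04. Shares over all tested genes were 14.6% higher and 15.5% lower in KO, and 10.4% and 14.7% in del-cIDR. Socs2, which encodes a feedback inhibitor of cytokine signalling, was higher in both, by 0.76 ± 0.05 in KO (adjusted p = 6.67e-08, limma) and 0.42 ± 0.05 in del-cIDR (2.92e-05). In KO Junb, on chromosome 8 like Klf2, differed by 0.60 ± 0.11 (adjusted p = 0.000734, limma), a call lost at 0.27 against that chromosome's median, and Lif itself differed by -0.50 ± 0.06 (2.24e-05). In del-cIDR Myc differed by -0.96 ± 0.13 (adjusted p = 0.000148, limma) and the feedback inhibitor Socs3 by -0.49 ± 0.09 (0.00126), whose call was lost with 1 value for each group. Stat3 was not called in either, at -0.02 ± 0.05 in KO (adjusted p = 0.792, limma) and -0.15 ± 0.05 in del-cIDR (0.0558). Spike-in scaling gave 3 higher and none lower in KO, and 1 each in del-cIDR. Over all tested genes it gave 21.9% higher and 2.63% lower in KO, and 5.69% and 2.23% in del-cIDR.

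Of the 8 corepressor genes whose products bind Kruppel-like factors, 3 were higher and 3 lower in KO. Shares over all tested genes were 14.6% higher and 15.5% lower. Sap30, of the Sin3 complex, was higher by 0.28 ± 0.08 (adjusted p = 0.0111, limma), while Ctbp2, a partner of Klf3, and Hdac2 differed by -0.28 ± 0.06 (0.00217) and -0.22 ± 0.07 (0.0308). In del-cIDR the only call was Fhl3, a cofactor of Klf3, at -0.75 ± 0.10 (adjusted p = 9.93e-05, limma) and a mean level of 71.3. There 10.4% of all tested genes were called higher and 14.7% lower. Sap30 and Sin3b lie on chromosome 8 too, and against that chromosome's median they turned to -0.05 and -0.18. Sin3b had been called higher in KO at 0.15, a call lost in 11 alternatives, 8 of which left out 1 library. Ctbp2 and Hdac2 turned on the spike-in scale. The call of Hdac2 was also lost in 11 of the 36 alternatives, 7 of which left out 1 library, that of Ctbp2 with no filter, and those of Sap30 and Fhl3 with 1 value for each group. On the spike-in scale the calls were 3 higher and none lower in KO, and Fhl3 alone, lower, in del-cIDR. Over all tested genes that scale gave 21.9% higher and 2.63% lower in KO, and 5.69% and 2.23% in del-cIDR.

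Across the 12 group means, the pattern of Klf5 resembled that of Klf9 more than that of almost any other gene. The Pearson correlation of their relative levels was 0.98, and Klf9 was the gene in place 2 of likeness to Klf5, between Gjc1 (0.98) and Crebrf (0.98). Crebrf (0.99), Gjc1 (0.98) and Pmpca (0.98) were most like Klf9. Klf4 correlated with Klf5 at 0.78 and with Klf9 at 0.75, and with Klf3 at -0.56. Genes most like Klf4 were Rbpj (0.96), Pnrc1 (0.96) and Tnrc6c (0.95), and those most like Klf3 were C230096K16Rik (0.98), which lies inside it, Pou4f2 (0.97) and Leprot (0.96). For Klf2 the nearest were Slc45a4 (0.84), Yipf2 (0.83) and Med15 (0.79), and for Klf13 Espl1 (0.91), Gm11993 (0.88) and Gm14150 (0.88). All these points share libraries, depth and the 4 labelling times, so the correlations describe the groups and carry no test.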

How the data were processed

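Newly made, EU-labelled RNA was measured in 24 mouse libraries. Per the submitters' processing notes, the reads were handled with HISAT2, SAMtools and Picard on GRCm39. For the versions, the read counter, its annotation and strand setting, nothing is given in the sources used here. The authors deposited log2 ratios of 20, 40 or 60 min to 10 min for each genotype, scaled to spike-in reads with both libraries combined, per the file headers and values. The column prefix ki was taken as del-cIDR, the remaining genotype.

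Whole reads of each library were worked out from the ratios (100% of the lines that are not 0, with rebuilt values that differ by at most 4.2e-15). A solution was accepted only if it gave the ratios back within a relative tolerance of 6e-15, so this agreement follows from the method. It concerns the sums of the 2 libraries of a group and does not check their split. The library with more spike-in reads of each pair is called A, since replicate numbers cannot be assigned. Where more than 1 split of a gene's reads between 2 libraries was possible, the split nearest the pair's median ratio was taken. It had to lie within 0.6 of that ratio on the log2 scale, with the next at least 0.8 away. This was done most in WT at 60 min, for 4676 genes. It favours libraries that look alike, and its effect on the p-values was not tested. In all other such cases the group entered as 1 value. Among the members a single value was used in WT at 60 min for Klf3, Klf4, Klf5 and Klf9. Levels are reads per 11714 spike-in reads. Testing needed reads in at least 6 libraries and a mean level from 10 upward. limma 3.58.1 (R 4.3.3) fitted log2(level + 1), minus each library's median over tested genes, with 12 group coefficients, and p-values were Benjamini-Hochberg adjusted over all 22448 genes with a threshold of 0.05. The reading of ratios and the fit were tested on simulated data. Fold changes are on the log2(level + 1) scale.

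Symbols, chromosomes and lengths came from GENCODE vM21 (51948 of 56941 identifiers matched), and upstream sequences from RefSeq. Members and lists were chosen with earlier results of these data known. From each list, up to 3 genes of largest absolute difference are named among those called in KO, and up to 3 in del-cIDR. For each member the 3 genes of highest correlation are named. Stat3, Klf10, Zfp42, Smad1, Sin3b and the single neural markers were named after their values were seen. So were the genes beside or inside Klf3, Klf2 and Klf13. The KO differences of Klf4, Klf5 and Klf9 at single times, and the counts of genes beside them, were also added after the data had been seen. For 1 gene that this rule would name, the result is not reported here. Alternatives were other scalings, pseudocounts of 0.1 and 10, filters, fits, and leaving out libraries or the 10 min time.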

Additional observations from a re-analysis of the deposited data

Results flagged for a closer look

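Klf3 met the criteria for a closer look, since its difference between genotypes depended on labelling time. The F test of del-cIDR against WT over the 4 times gave adjusted p = 0.0157 (limma), and the slope per doubling of time differed between del-cIDR and WT (adjusted p = 0.0146, limma) and between del-cIDR and KO (0.00155). The difference from WT was -0.43 and -0.34 at 10 and 20 min and -1.29 and -1.28 at 40 and 60 min. In the 2 libraries of each del-cIDR group the relative level went the same way, with 3.72 and 3.70 at 20 min and 3.43 and 3.16 at 40 min, while WT went from 4.04 and 4.06 to 4.56 and 4.60. The 10 min del-cIDR libraries, with 4006077 and 3129065 gene reads, and 1 WT library of 10 min, with 3771433, had the fewest. Without the 10 min libraries the F test gave 0.129, with no filter on low levels 0.124 and on the spike-in scale 0.0613 (adjusted p, limma), and the contrast with WT passed in none of these settings.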

How the results depend on the processing

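No paired analysis was possible because the recovered libraries carry no replicate numbers. Over 36 alternatives the values of the 6 genes and of C230096K16Rik kept direction and side of the threshold 1880 times, lost the call 55 times, gained it 26 times and changed sign 36 times. The fall of Klf3 in del-cIDR, against WT and KO, kept its call in all of them. The cause of the changes below was not tested.

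On the spike-in scale calls were 1777 for del-cIDR minus WT and 5301 for del-cIDR minus KO (5639 and 9744 relative to the median gene), 21436, 20320 and 21819 for time trends in WT, KO and del-cIDR (7557, 5491 and 9626), and 0 and 1233 for dependence of KO and del-cIDR differences on time (2 and 467). Signs turned for Klf5 (0.059) and Klf9 (0.012) in KO, Klf13 in del-cIDR (0.11), Klf2 between mutants (-0.13) and Klf3 in del-cIDR after 20 min (0.40), and for slopes of Klf2 in WT (0.76), Klf3 in del-cIDR (0.74) and Klf13 in KO (0.58) and del-cIDR (0.79). Quantile normalization gave 0 genes whose KO difference depended on time, and turned slopes of Klf2 in KO (-0.079) and del-cIDR (-0.049), Klf4 in WT (-0.11) and Klf13 in WT (-0.11).

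A pseudocount of 0.1 gave 8 genes for KO by time. A pseudocount of 10 gave 12789, 9108 and 14826 time trends, 4 and 829 for dependence on time, and turned Klf2 between mutants (-0.026) and slopes of Klf2 in WT (0.027) and Klf13 in KO (0.0028). No filter gave 3344 for del-cIDR minus WT, 19187, 13795 and 22763 trends, 1 and 12 for dependence on time, and slopes of 0.13 for Klf2 in WT and 0.072 for Klf13 in KO. A mean level of 50 gave 1 and 1143 for dependence on time, and slopes of -0.029 for Klf2 in KO, -0.040 for Klf4 in WT and -0.057 for Klf13 in WT. An intensity trend in limma gave 1 and 1756.

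Centring on the gene's own chromosome gave -0.21 for Klf2 in KO, and slopes of -0.0015 for Klf2 in KO and -0.013 for Klf4 in WT. Without the 10 min libraries there were 5670 del-cIDR trends, 0 and 0 for dependence on time, and slopes of -0.029 for Klf2 in KO and 0.034 for Klf13 in del-cIDR. With 1 value per group, calls were 3821 for KO minus WT and 2256 for del-cIDR minus WT, trends 1626, 98 and 5289, and Klf2 between mutants -0.00072. Leaving out genes with an unclear split, chosen after seeing the data, gave 3619 KO trends and 196 for del-cIDR by time.

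Leaving out each library in turn gave 5943 to 7294 calls for KO minus WT, 4750 to 6129 for del-cIDR minus WT, 8894 to 10003 between mutants, 5249 to 8221, 3331 to 6179 and 7596 to 9889 trends, and 0 to 66 and 70 to 783 for dependence on time. It moved Klf2 between mutants from -0.024 to 0.038, its KO slope from -0.024 to 0.063 and the WT slope of Klf13 from -0.011 to 0.036.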

Other observations

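The line of C230096K16Rik, inside Klf3, had a mean level of 334, against 2698 for Klf3, and its difference between del-cIDR and KO was -0.90 (adjusted p = 5.07e-08, limma), close to the -0.93 of Klf3. Both lines were called lower in del-cIDR under all 36 alternative settings.

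Pou4f2, a neural transcription factor with a mean level of 27.4, followed Klf3 over the 12 groups at a correlation of 0.97 although it lies on chromosome 8. Its difference from WT was 0.17 in KO and -0.90 in del-cIDR. Leprot, also alike in pattern at 0.96, differed by less, -0.24 in del-cIDR.

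Rbpj, which encodes the DNA-binding factor of Notch signalling, had a mean level of 9215 and followed Klf4 at 0.96, with differences of -0.34 in KO and 0.10 in del-cIDR. Pnrc1 differed by -0.54 and 0.25, and Tnrc6c by -0.34 and 0.05. Crebrf and Gjc1, both alike to Klf5 and Klf9, differed by -0.45 and -0.40 in KO and by 0.16 and 0.03 in del-cIDR. These genes were chosen for their likeness to the members, so their shared direction is a description.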
